A study of Homo sapiens with 12 samples.

Results

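The comparison set 4 RNA-sequencing libraries of CTCF-A KO cells against 4 libraries of CTCF-B KO cells, 8 of the 12 libraries of the series. The other 4 libraries, of wild-type cells, gave the level from which each knockout was placed as above or below. Of 11178 genes in the deposited table, 11128 were kept, those with a value of at least 10 on the linear scale in at least 4 of the 12 libraries. Among these, 1134 genes lay on opposite sides of wild type in the 2 knockouts: both differences from wild type passed limma's test with a Benjamini-Hochberg adjusted p under 0.05, and their signs were opposite. A gene was called clearly opposite when, in addition, each difference was at least 0.5 on the log2 scale and no library of either knockout overlapped the range of the wild-type libraries. That held for 58 genes.

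All 12 libraries came from U251-APP cells, an established human glioblastoma line made to express, stably, mutant APP (the changes K670N and M671L, per the labels' growth protocol). In CTCF-A KO cells the CTCF-binding site named CTCF-A had been deleted with Cas9 and a pair of flanking guide RNAs, and in CTCF-B KO cells the site named CTCF-B. The treatment protocol, given for every sample, describes puromycin selection, picking of mCherry-positive single cells, clonal growth and sequencing of the target region. Below, the knockouts are written A KO and B KO. Wild-type control cells carried the same APP transgene, and the labels do not say whether they were cloned. The labels give neither the position of the sites nor the number of clones, so replicates may be cultures or preparations of 1 clone. The p-values therefore rest on the spread among these samples alone. That spread may be technical, and an effect of the deletion and a property of the clone cannot be told apart.

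CTCF is a zinc-finger protein that binds DNA and, together with cohesin, anchors chromatin loops and separates domains, so that the loss of a single site can change which enhancers reach a promoter. Growth-factor signalling through RAS and the kinase ERK switches on early transcription factors and the PEA3 transcription factors ETV1, ETV4 and ETV5. With them it switches on its own brakes, the dual-specificity phosphatases (DUSP) and the Sprouty and SPRED proteins. The PEA3 factors serve as readouts of ERK activity. Extracellular matrix proteins and integrins serve glioma cells in attachment and invasion.

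Expression values are the deposited log2 values, and the depth of each library is unknown. Replicates were close in B KO and wild type, where a library's median absolute difference from its sister libraries was 0.041 to 0.069. In A KO it was 0.062 and 0.072 for replicates 2 and 3, 0.179 for replicate 1 and 0.214 for replicate 4. Genes of high GC content stood above genes of low GC content, relative to wild type, by 0.447 to 0.911 in A KO replicates 1 to 3, and by 0.085 in replicate 4. In the other 8 libraries this contrast ran from -0.122 to 0.076. Of the 15 astrocyte and glioma markers 10 were kept, among them GFAP, SOX2 and VIM, and none of the 10 microglia markers was. The summed linear level of the astrocyte and glioma markers was 169055 to 191750 in wild type, 117688 to 131717 in A KO and 109251 to 113138 in B KO. Of the neuron markers 5 of 12 were kept, and their summed linear level was 38924 to 42138 in wild type, 54562 to 62460 in A KO and 13668 to 15389 in B KO. NEFL, one of the clearly opposite genes, made up most of that sum. KDR, the 1 endothelial marker kept, was at 1198 to 1276 in wild type, 501 to 632 in A KO and 674 to 732 in B KO. The part of these shifts in the results below was not tested. In bulk RNA fewer cells of a kind and less RNA per cell cannot be told apart.

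CTCF mRNA itself was not called different between the knockouts, and the sign of its difference changed with the scaling. It was at 10.84 in A KO and 10.88 in B KO (group means), a difference of -0.04 ± 0.04 (SE, n = 4) with an adjusted p of 0.375 in limma. MTCH2, a gene named in a B KO label, was lower in A KO than in B KO by 0.45 ± 0.06 on the log2 scale (adjusted p 1.81e-05). APP was lower in A KO, at 0.599 of the B KO level (log2 difference -0.74 ± 0.03, adjusted p 1.12e-09), and both knockouts lay below wild type. All these cells carry the APP transgene, and its reads and those of the cells' own APP gene cannot be told apart here.

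The knockouts differed from each other over much of the transcriptome. Limma called 7349 genes, 66.0% of those tested: 3717 were higher in A KO (33.4%) and 3632 lower (32.6%). At least a 2-fold difference was found for 226 genes higher in A KO (2.03%) and for 137 genes lower (1.23%), 3.26% of the genes tested together. Without A KO replicate 4 these were 257 and 276, so that the share of 2-fold genes that were higher in A KO went from 62.3% to 48.2%. Using that replicate alone for A KO they were 173 and 93. Every fit with replicate 4 alone takes the spread from the other groups and assumes that the lone library varies as they do.

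Where wild type stood differed between the directions. Of the 226 genes at least 2-fold higher in A KO, 153 (67.7%) lay above wild type in A KO and below it in B KO. For 37 only the rise in A KO was called, and for 14 only the fall in B KO. A further 11 were above wild type in both knockouts, 10 were below it in both, and 1 was called in neither. Of the 137 genes at least 2-fold lower in A KO, 59 (43.1%) lay on opposite sides of wild type, and for 61 (44.5%) only the fall in A KO was called. Another 8 rose in B KO only, 6 were above wild type in both, and 3 were below it in both. A gene far apart between the knockouts is likely to be called against wild type on at least one side, so these shares describe the genes and test nothing.

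Over all genes, 727 lay above wild type in A KO and below it in B KO (6.53% of the genes tested), and 407 lay the other way round (3.66%). For comparison, 31.8% of all genes were above and 31.1% below wild type in A KO, and 18.9% were above and 20.6% below in B KO. Both comparisons use the same 4 wild-type libraries, so they are not independent. No library of either knockout overlapped the wild-type range for 584 of the 727 and 326 of the 407. These genes had already been called in both comparisons, so these counts describe them and test nothing. The same share over all genes was not counted. Between the knockouts, without regard to wild type, the libraries did not overlap for 5957 of all genes kept (53.5%). The balance between the directions moved with the scaling: A above B made up 64.1% of the opposite genes as deposited, 50.5% (804 against 788) after a trend of GC content and transcript length was taken out of each library, and 53.5% with A KO replicate 4 alone. After removal of that trend 756 of the 1134 genes were again on the same opposite sides, and 2 had changed sides.

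**Figure D1:**
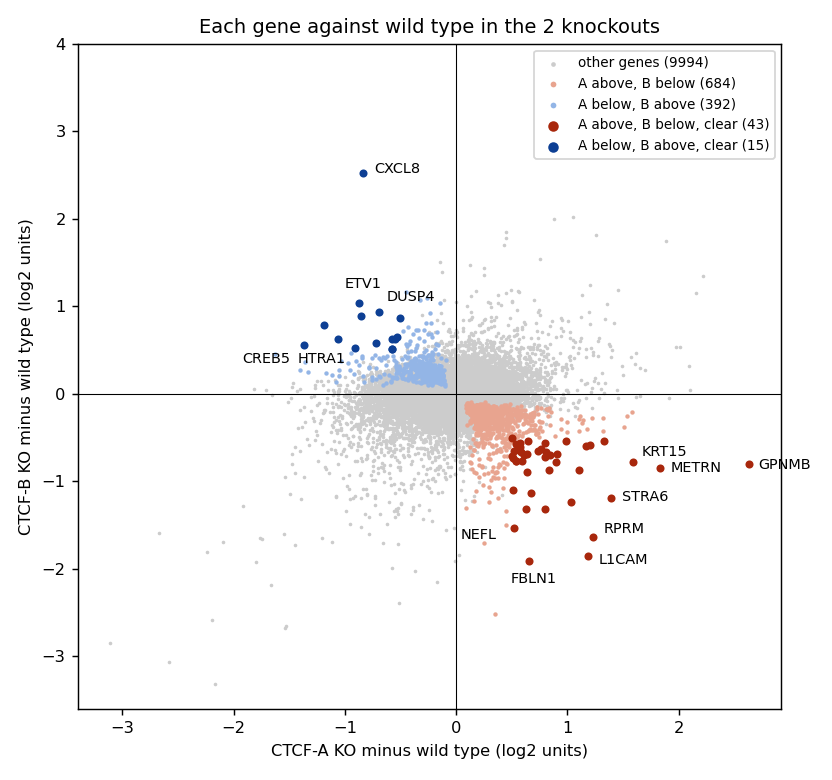
Difference from wild type in A KO (horizontal axis) and B KO (vertical axis), both in log2 units of the deposited values, 1 point per gene (11128 genes), with opposite genes in red (A KO above) or blue (A KO below) and the 43 and 15 clearly opposite genes darkest. GPNMB lies farthest to the right of the red points (2.64) and CXCL8 highest of the blue ones (2.52), and both axes share the wild-type libraries.

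The clearly opposite genes numbered 43 with A KO above and B KO below (0.386%) and 15 with A KO below and B KO above (0.135%). They were chosen by their differences from wild type, so those differences and the difference between the knockouts that follows from them are given as values with their standard errors and without p-values. In the median, the 43 genes differed from the wild-type mean by 0.83, 0.68, 0.73 and 0.52 in A KO replicates 1 to 4, and by -0.72, -0.74, -0.77 and -0.74 in the B KO replicates (log2 units). The 15 genes differed by -0.96, -0.60, -0.80 and -0.50 in A KO and by 0.64, 0.64, 0.66 and 0.63 in B KO. A KO replicate 4 was thus the mildest of its group and the B KO libraries were nearly alike. At the limit of 0.5, PBXIP1 (smaller difference 0.503), GSTM4 (0.504), TTC17 (0.504) and HIVEP2 (0.509) fell just inside. TRAPPC6A (0.498), PLXNB3 (0.492), SH2B3 (0.479) and RGS10 (0.465) fell just outside.

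**Figure D2:**
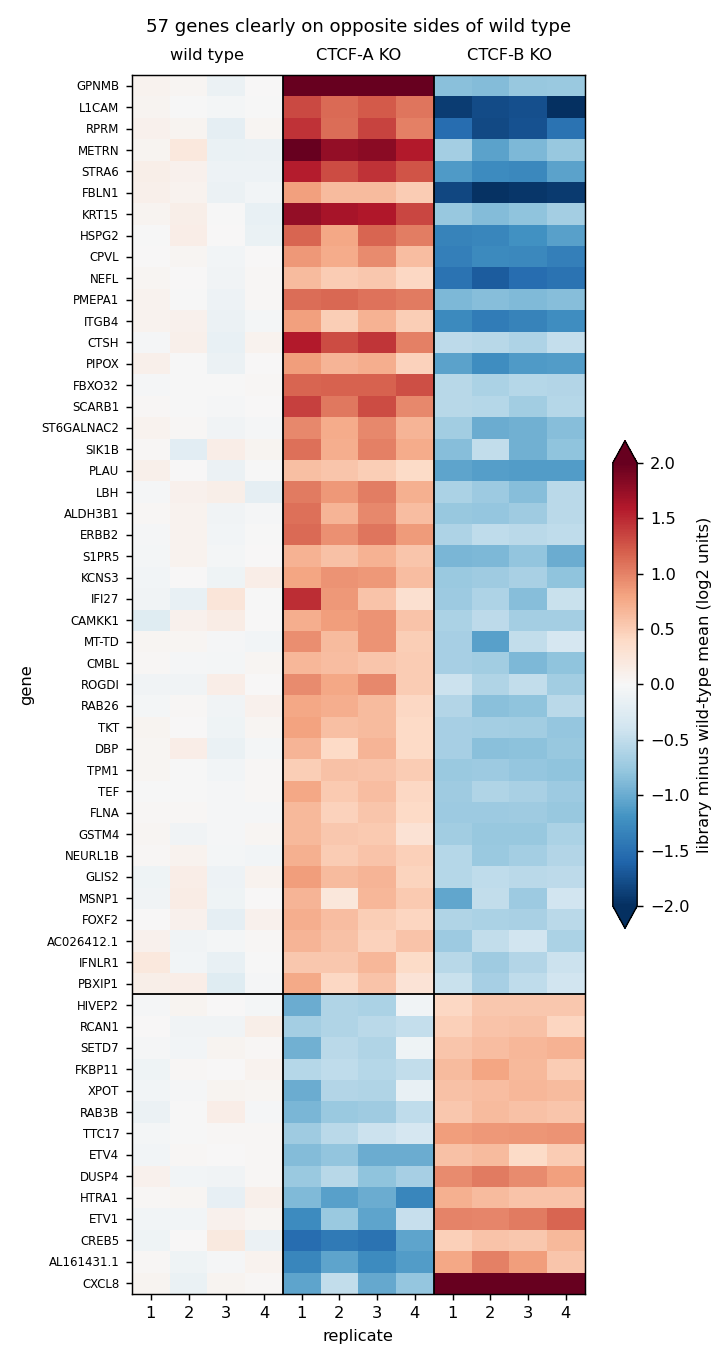
Of the 58 clearly opposite genes, 57 (rows) in the 12 libraries (columns, replicates 1 to 4 of each group), coloured by the library's deposited log2 value minus the wild-type mean of that gene, with values beyond 2 in the darkest shade. The upper 43 rows are red in all 4 A KO libraries and blue in all 4 B KO libraries, the lower 14 rows the reverse.

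The widest gap among the genes higher in A KO was that of GPNMB, a transmembrane glycoprotein of lysosomes and melanosomes (ENSG00000136235, chromosome 7, 23235967 to 23275108, GRCh38). It read 9.68, 9.64, 9.50 and 9.62 in the wild-type libraries, 12.31, 12.16, 12.32 and 12.20 in A KO, and 8.77, 8.75, 8.85 and 8.87 in B KO. The distance between the knockouts was 3.44 ± 0.05 (SE, n = 4), or 10.8-fold. In the opposite direction the widest gap was that of CXCL8, the neutrophil-attracting chemokine interleukin 8 (ENSG00000169429, chromosome 4, 73740506 to 73743716). Its values were 9.70, 9.52, 9.70 and 9.68 in wild type, 8.60, 9.16, 8.63 and 8.87 in A KO, and 12.08, 12.62, 12.12 and 11.86 in B KO. It was 10.2-fold higher in B KO than in A KO (log2 difference -3.35 ± 0.15, A KO minus B KO), and most of the distance lay on the B KO side.

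Short stretches of promoter sequence are shown for these 2 genes, which mark the ends of the comparison, and for the members whose promoters held the letters of a CTCF motif. The 250 bases before the first listed RefSeq start of each gene (GRCh38.p14) were searched on both strands for 6 motifs: AP-1 (TGANTCA), NF-kB (GGNNTTTCC), MITF/TFE (TCANNTGA), ETS (CCGGAAG), TEAD (ACATTCC) and the CTCF core (CCA, any 2 letters, AG, any 2 letters, GGC), where N is any base. A sequence was found for 30 of the 43 and 11 of the 15 genes, and some genes have further starts that were not searched. Capitals mark the matching letters, the runs are 5′ to 3′ on the strand of the gene, and 9 bases flank each match.
GPNMB, AP-1, chr7:23246632-23246656 (+): aagaaggagTGAGTCAtaagcacat
GPNMB, MITF/TFE, chr7:23246703-23246728 (+): ttaataccaTCACATGAtcctccccg
CXCL8, AP-1, chr4:73740423-73740447 (+): gaagtgtgaTGACTCAggtttgccc
CXCL8, NF-kB, chr4:73740469-73740495 (+): gcaaatcgtGGAATTTCCtctgacata
METRN, CTCF, chr16:715028-715057 (+): ccgccccgcGCCTGCTATTGGcggaaagtt
LBH, CTCF, chr2:30231438-30231467 (+): gacgttattCCAGGAGTGGGCgagggaggg
CAMKK1, CTCF, chr17:3893170-3893199 (-): tcccttagtCCAGGAGGGGGCgggagtccc

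The matches start 134 and 63 bases before the start of GPNMB and 137 and 91 before that of CXCL8. The AP-1 letters were in 6.60% of 27305 promoters, in 2 of the 30 (ERBB2 and GPNMB) and in 2 of the 11 (CXCL8 and RAB3B). The NF-kB letters were in 5.48% of all promoters and in CXCL8 alone among the members, and the MITF/TFE letters in 6.35% and in GPNMB and PBXIP1. The ETS letters were in 8.82%, in ERBB2, RPRM and TPM1 of the 30 and in XPOT of the 11. The TEAD letters were in 2.95% and in no member. The CTCF letters were in 2.12% of all promoters, in 3 of the 30 and in none of the 11. A match describes the letters only, and the 43 genes were also richer in GC than genes at large (a median of 56.2% against 48.7%).

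Several of the 43 encode adhesion and matrix proteins. L1CAM, a neural cell adhesion molecule of axon growth and glioma cell motility (chromosome X, 153861514 to 153886174), read 9.54, 9.47, 9.44 and 9.48 in wild type, 10.80, 10.62, 10.71 and 10.56 in A KO, and 7.59, 7.70, 7.73 and 7.49 in B KO. Among the 43 only GPNMB had a wider gap than its 3.05 ± 0.06, or 8.26-fold. HSPG2, which encodes the basement membrane proteoglycan perlecan (chromosome 1, 21822245 to 21937297), was at 10.56, 10.70, 10.58 and 10.43 in wild type. It was at 11.74, 11.34, 11.73 and 11.60 in A KO and at 9.23, 9.27, 9.36 and 9.47 in B KO, 4.82-fold apart.

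FBLN1, which encodes the matrix glycoprotein fibulin 1, differed from wild type by 0.65 in A KO and -1.91 in B KO (differences of log2 means, given in this order below). ITGB4, the integrin β4 subunit of hemidesmosomes, differed from wild type by 0.63 and -1.31, and PLAU, the urokinase that starts plasmin formation at the cell surface, by 0.51 and -1.09. The actin-binding genes FLNA (0.51 and -0.73) and TPM1 (0.54 and -0.76) showed the same order. For these 5 genes the fall in B KO was the larger part. The genes of their 10 Mb windows had medians relative to wild type, in A KO and B KO, as follows. They were 0.194 and -0.235 for FLNA (a window shared with L1CAM), 0.344 and -0.126 for FBLN1, and 0.34 and 0.046 for ITGB4. For TPM1 they were 0.12 and -0.09, and for PLAU -0.115 and -0.116. The part of the neighbourhood in these genes was not tested.

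RPRM, the p53-induced cell cycle inhibitor reprimo (chromosome 2, 153477338 to 153478808), read 10.10, 10.07, 9.84 and 10.04 in wild type, 11.45, 11.13, 11.36 and 11.01 in A KO, and 8.50, 8.21, 8.27 and 8.54 in B KO. STRA6, the membrane receptor that takes up retinol from its binding protein (chromosome 15, 74179466 to 74212267), read 9.85, 9.81, 9.61 and 9.63, then 11.30, 11.03, 11.16 and 10.98, then 8.59, 8.46, 8.44 and 8.65 in the same order of groups. The knockouts stood 7.27-fold apart for RPRM and 5.99-fold for STRA6.

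METRN, a secreted factor of glia and neurites, differed from wild type by 1.83 in A KO and -0.85 in B KO, and PMEPA1, a TGF-β-induced inhibitor of TGF-β signalling, by 1.10 and -0.87. ERBB2, the receptor tyrosine kinase HER2, differed by 0.99 and -0.54. The sphingosine-1-phosphate receptor S1PR5 differed by 0.63 and -0.90, and the λ-interferon receptor subunit IFNLR1 by 0.54 and -0.57. METRN lies in the first 10 Mb of chromosome 16, where the 133 genes had a median of 0.55 in A KO and 0.05 in B KO relative to wild type. RAB26, ROGDI and GLIS2, named below, lie in the same 10 Mb. The part of this regional shift in the rise of METRN or of these genes was not tested.

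Lysosomal and metabolic genes followed. CTSH, the protease cathepsin H, differed from wild type by 1.33 and -0.54, and CPVL, a serine carboxypeptidase, by 0.79 and -1.32. TKT, transketolase of the pentose phosphate pathway, was among the most abundant members, at 14.95 to 15.09 in wild type, 15.44 to 15.84 in A KO and 14.27 to 14.37 in B KO. ALDH3B1, an aldehyde dehydrogenase (0.84 and -0.69), GSTM4, a glutathione transferase with close paralogs (0.50 and -0.71), PIPOX, a peroxisomal oxidase (0.68 and -1.14), and SCARB1, the HDL receptor (1.17 and -0.59), had the same order. FBXO32, a ubiquitin ligase known from muscle wasting, differed by 1.20 and -0.59, with A KO replicate 4 the highest library, at 13.08.

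NEFL, the light neurofilament of neurons, read 15.33, 15.28, 15.21 and 15.31 in wild type, 15.91, 15.78, 15.82 and 15.70 in A KO, and 13.81, 13.62, 13.75 and 13.80 in B KO. The other intermediate filament gene among the members, KRT15, a keratin of epithelia, differed from wild type by 1.59 and -0.77. Transcriptional regulators in the group were the circadian output factors TEF (0.58 and -0.67) and DBP (0.54 and -0.77), the forkhead factor FOXF2 (0.57 and -0.60), the zinc finger protein GLIS2 (0.65 and -0.54) and the cofactor LBH (0.91 and -0.69). The other 13 had gaps between the knockouts of 2.01-fold (PBXIP1) to 3.28-fold (ST6GALNAC2, a sialyltransferase). They were the potassium channel subunit KCNS3 (0.80 and -0.72), the calcium-dependent kinase CAMKK1 (0.76 and -0.63), the vesicle GTPase RAB26 (0.63 and -0.69), the Notch pathway ubiquitin ligase NEURL1B (0.57 and -0.64), SIK1B, MSNP1, ROGDI, CMBL, IFI27, the transcribed pseudogene AC026412.1 and the mitochondrial aspartate tRNA MT-TD, besides those at the ends of that range. Of these, SIK1B is a near copy of SIK1, and MSNP1 and AC026412.1 are annotated as pseudogenes, so their reads could have been split between copies.

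The 15 genes below wild type in A KO and above it in B KO included regulators of signalling and of transcription. ETV1, a PEA3 transcription factor, read 8.84, 8.84, 8.97 and 8.93 in wild type, 7.63, 8.16, 7.85 and 8.44 in A KO, and 9.88, 9.87, 9.93 and 10.06 in B KO. Its relative ETV4 read 7.12, 7.21, 7.18 and 7.21, then 6.32, 6.39, 6.18 and 6.18, then 7.77, 7.81, 7.56 and 7.68. DUSP4, a nuclear phosphatase that dephosphorylates ERK, read 9.05, 8.91, 8.90 and 8.99, then 8.22, 8.41, 8.16 and 8.29, then 9.91, 10.00, 9.91 and 9.78. B KO exceeded A KO 3.78-fold for ETV1, 3.09-fold for DUSP4 and 2.71-fold for ETV4.

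CREB5, a transcription factor of the CREB family, differed from wild type by -1.37 in A KO and 0.56 in B KO. RCAN1, an inhibitor of calcineurin, differed by -0.57 and 0.52, and HIVEP2, a zinc finger factor, by -0.57 and 0.51. The vesicle GTPase RAB3B differed by -0.72 and 0.58, the tRNA exporter XPOT by -0.58 and 0.62, the lysine methyltransferase SETD7 by -0.55 and 0.63, and the endoplasmic reticulum prolyl isomerase FKBP11 by -0.54 and 0.65. The RNA gene AL161431.1 differed by -1.19 and 0.79. For SETD7, HIVEP2 and XPOT, A KO replicate 4 lay close under the wild-type range, at 10.02, 8.91 and 11.10, while the other 3 replicates reached at most 9.56, 8.39 and 10.65. With the GC and length trend removed the A KO differences were -0.19 for XPOT, -0.25 for SETD7, -0.39 for RAB3B, -0.41 for ETV1, -0.37 for HIVEP2 and -0.91 for CREB5.

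For 2 of the 15 genes the values of the neighbours are given as well. HTRA1, a secreted serine protease (chromosome 10, 122458551 to 122514908), differed from wild type by -1.06 in A KO, and the other genes of its 10 Mb window had a median of -1.19 there. In B KO it differed by 0.62 and the other genes by 0.06. TTC17, a tetratricopeptide protein (chromosome 11, 43358932 to 43494933), read 10.91, 10.95, 10.97 and 10.98 in wild type, 10.24, 10.42, 10.52 and 10.62 in A KO, and 11.79, 11.82, 11.83 and 11.85 in B KO. The other genes of its window, which also holds MTCH2, had medians of -0.26 and 0.09. The part of the neighbourhood in either gene was not tested.

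**Figure D3:**
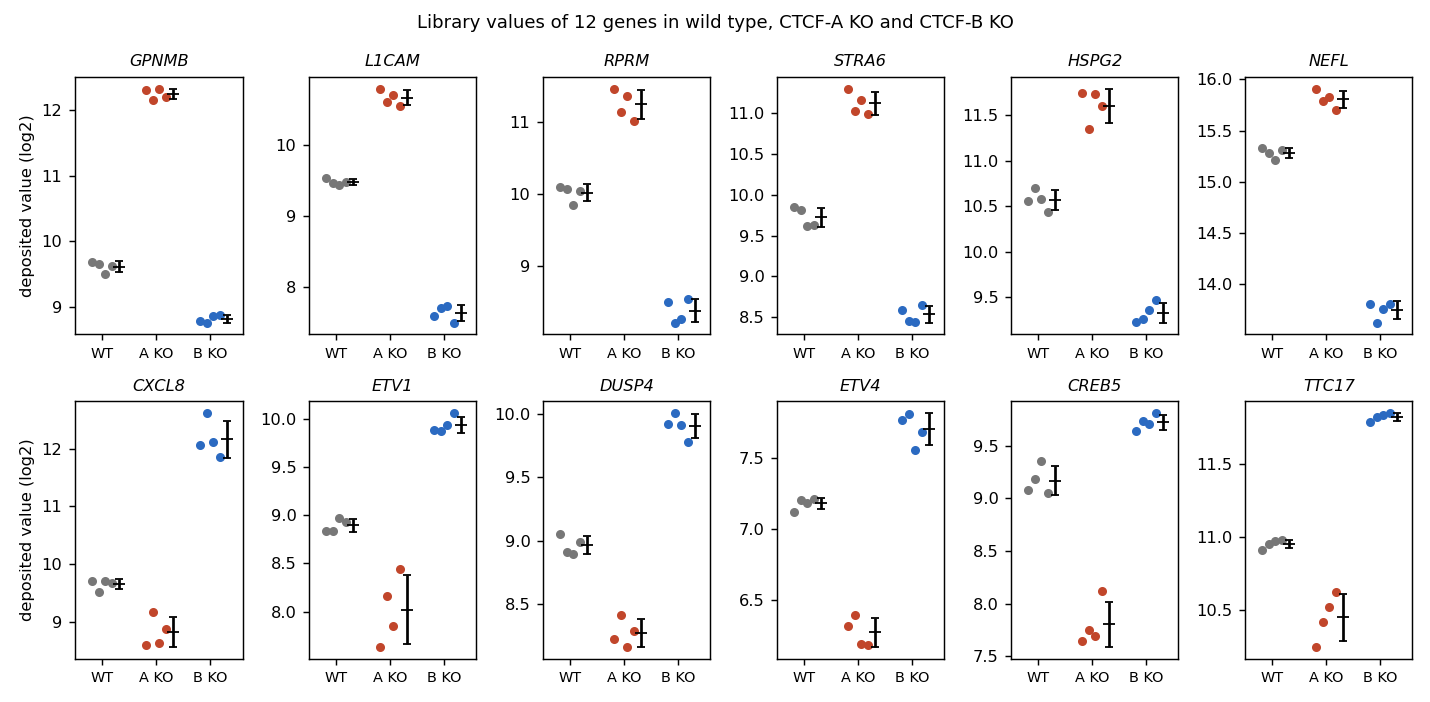
Deposited log2 values of 12 clearly opposite genes in wild type (WT), A KO and B KO. Each point is a library, the black mark gives the mean and SD of 4 libraries, and the vertical axes differ in range and do not start at 0. In the upper row the A KO points lie above and the B KO points below all wild-type points, and in the lower row the reverse.

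The gene lists put these members among their pathways. Each list is read against all genes, of which 33.4% were higher and 32.6% lower in A KO, 6.53% lay on opposite sides with A KO above and 3.66% with A KO below. The genes named from the lists were chosen by their adjusted p or by lying on opposite sides, so they too are given without p-values. Of 25 measured genes of the list of MAPK feedback and early genes, 19 were lower in A KO than in B KO and 6 were higher, with a median difference of -0.71, against -0.01 over all genes. In this list 9 genes (36.0%, and 8 to 12 over the alternatives) lay below wild type in A KO and above it in B KO: ETV1, ETV4, ETV5, DUSP4, DUSP6, SPRY2, SPRY4, EGR1 and MYC. ETV5 read 10.32 to 10.39 in wild type, 10.03 to 10.05 in A KO and 11.33 to 11.56 in B KO, a difference of -1.40 ± 0.05. DUSP6, the cytoplasmic ERK phosphatase, differed between the knockouts by -1.62 ± 0.09, and the early transcription factor EGR1 by -1.36 ± 0.08.

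SPRY4, a Sprouty inhibitor of receptor signalling, differed by -1.03 between the knockouts, SPRY2 by -0.85 and MYC by -0.71. Against wild type the rise in B KO was the larger part for ETV5 (1.08, against -0.32 in A KO), DUSP6 (1.17, against -0.45) and EGR1 (1.09, against -0.27). DUSP10, a phosphatase that acts on the stress kinases JNK and p38 rather than ERK, went the other way, with 7.75 to 7.91 in wild type, 9.21 to 9.59 in A KO and 7.38 to 7.53 in B KO (difference 1.89 ± 0.08). FOSL2, an AP-1 subunit, also stood higher in A KO, by 0.46. The median of the list ran from -0.88 to -0.64 over all alternatives in processing.

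**Figure D4:**
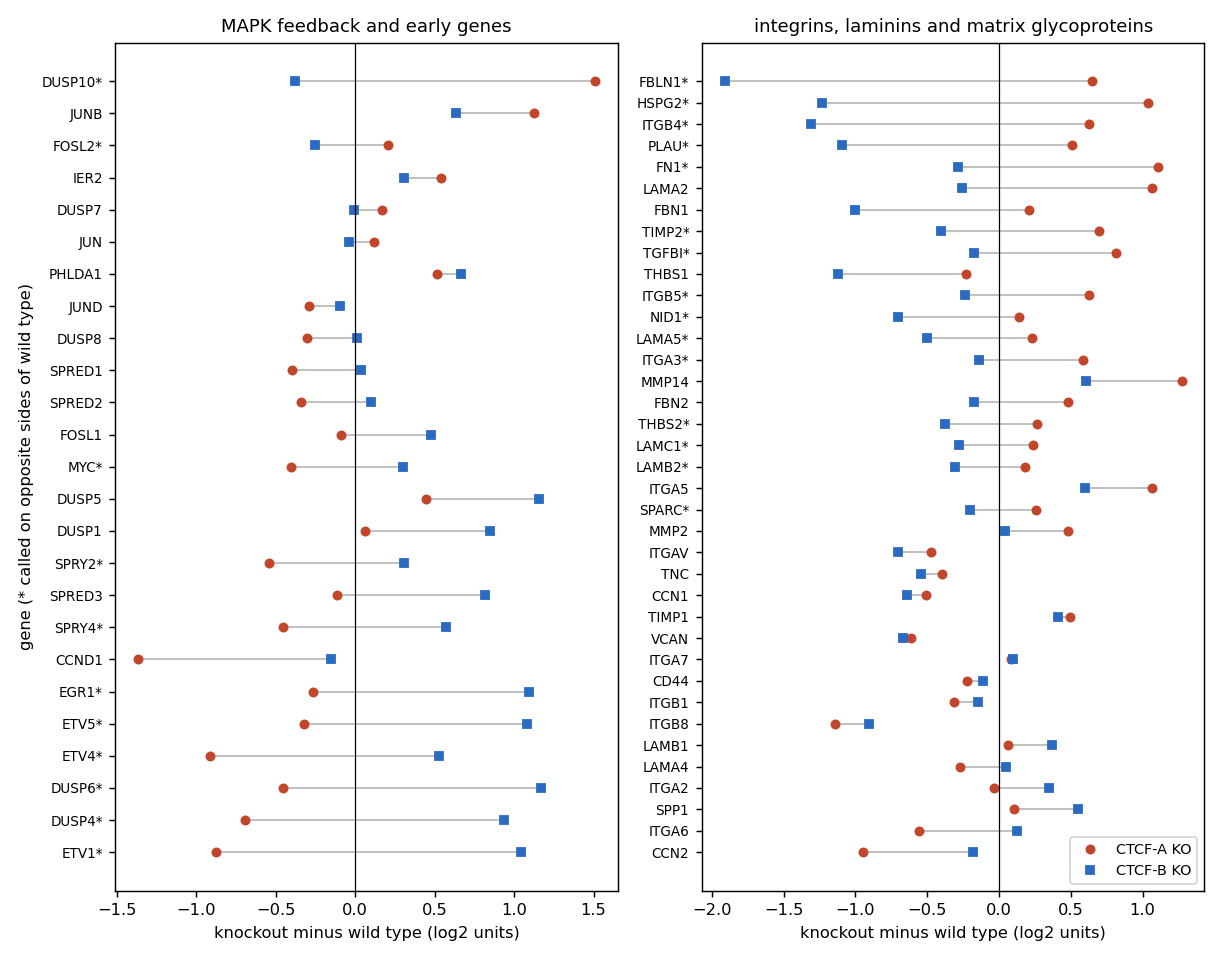
Measured members of 2 lists, MAPK feedback and early genes (left, 25 genes) and integrins, laminins and matrix glycoproteins (right, 37 of the 38 genes), ordered by the difference between the knockouts, with circles for the mean of 4 A KO libraries and squares for that of 4 B KO libraries, as differences from the wild-type mean in log2 units. An asterisk marks genes called on opposite sides of wild type: 11 on the left, 9 of them with B KO on the right of zero, and 15 on the right, all with A KO on the right of zero.

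ATF4 is the transcription factor of the integrated stress response and drives amino acid synthesis, transport and tRNA charging. Of 29 measured genes of its list 25 were lower in A KO than in B KO and 1 was higher, with a median difference of -0.54. Both knockouts lay above wild type in the median, by 0.11 in A KO and 0.66 in B KO. The pseudokinase TRIB3 read 9.11 to 9.25 in wild type, 9.49 to 9.82 in A KO and 10.78 to 11.12 in B KO (difference -1.34 ± 0.08). Opposite sides were reached by 4 genes, by 9 with the GC and length trend removed and by 3 under median centring. The 4 were the glycyl-tRNA synthetase GARS1 (-0.23 and 0.81), the mitochondrial folate enzyme MTHFD2 (-0.31 and 0.43), the serine synthesis enzyme PSAT1 (-0.19 and 0.57) and the transcription factor CEBPG (-0.49 and 0.21). The median ran from -0.68 to -0.47 over the alternatives.

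Matrix genes showed the reverse order. In the list of integrins, laminins and matrix glycoproteins, 23 of 38 measured genes were higher in A KO and 7 lower, with a median difference of 0.48. On opposite sides of wild type lay 15 genes (39.5%), all with A KO above as deposited. After removal of the GC and length trend 12 lay with A KO above and 3 with A KO below, with quantile normalization 10 and 1, and with A KO replicate 4 alone 19 and 1. The 15 were, besides HSPG2, FBLN1, ITGB4 and PLAU, the fibronectin gene FN1, the laminin chains LAMA5, LAMB2 and LAMC1, NID1, TGFBI, THBS2, SPARC, TIMP2, ITGA3 and ITGB5. FN1 was at 11.95 ± 0.05 in wild type, 13.05 ± 0.09 in A KO and 11.67 ± 0.03 in B KO (mean ± SD, n = 4), without overlap (difference 1.39 ± 0.05). The list was not uniform: the matricellular CCN2 (-0.76), the integrin chain ITGA6 (-0.69) and SPP1, osteopontin (-0.44), were lower in A KO and are named here after their values were seen. LAMA5, a very GC-rich gene, differed by 0.73 as deposited and by 0.06 after removal of the GC and length trend, which was not called.

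Of 26 collagens and collagen-modifying enzymes, 16 were higher in A KO and 4 lower (median 0.24), and 9 lay on opposite sides with A KO above and 1, P4HA1, with A KO below. COL14A1, a collagen of the fibril surface, read 11.64 to 11.78 in wild type, 11.84 to 12.31 in A KO and 9.06 to 9.29 in B KO, a 7.30-fold difference (2.87 ± 0.09). The basement membrane collagen COL18A1 was 3.84-fold higher in A KO. COL6A1 (1.43) and COL6A2 (1.37), neighbours on chromosome 21, stood mainly apart by their rise in A KO, whereas COL5A1 (1.38) and COL14A1 stood apart by their fall in B KO. After removal of the trend the counts were 14 higher and 7 lower, with quantile normalization they were 10 and 7, and the median over the alternatives ran from 0.05 to 0.31.

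In the lysosome list 32 of 40 genes were higher in A KO and 4 lower (median 0.36, and 0.32 to 0.44 over the alternatives). Opposite sides were reached by 7 genes (17.5%), by 11 without A KO replicate 4 and by 12 with the GC and length trend removed. The lowest count over the alternatives was 6. The 7 were GPNMB, CTSH, the mannosidase MAN2B1 (0.75 and -0.40), the proton pump subunit ATP6AP1 (0.48 and -0.33), the saposin precursor PSAP (0.57 and -0.24), the acid lipase LIPA (0.34 and -0.17) and the ceramidase ASAH1 (0.18 and -0.23). CTSD, the aspartic protease cathepsin D, was 3.19-fold higher in A KO with B KO within 0.02 of wild type. MITF, a transcription factor that can drive lysosomal genes and GPNMB, read 9.55 to 9.76 in wild type, 9.79 to 10.48 in A KO and 8.28 to 8.35 in B KO (difference 1.78 ± 0.11). In the autophagy list, which holds MITF, 11 of 28 were higher and 10 lower, and the LC3 gene MAP1LC3B (-0.75 and 0.41), BNIP3 (-0.85 and 0.41) and GABARAPL2 (-0.47 and 0.18) lay on the other side, below wild type in A KO and above it in B KO.

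Antioxidant genes of the NRF2 list were higher in A KO for 18 of 25 and lower for 4 (median 0.47, and 0.29 to 0.56 over the alternatives). The quinone reductase NQO1 read 13.59 to 13.65 in wild type, 14.09 to 14.47 in A KO and 13.11 to 13.25 in B KO. On opposite sides lay 6 genes of that list, among them NQO1, TKT, the epoxide hydrolase EPHX1 (0.68 and -0.31) and the efflux pumps ABCC1 (0.46 and -0.33) and ABCC3 (0.22 and -0.39).

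Antigen presentation separated the knockouts on the A KO side. Of 14 genes of MHC class I and peptide loading 12 were higher in A KO and 1 lower (median 0.80), with B KO at wild type in the median (0.01). HLA-B (1.54 and -0.25), the light chain gene B2M (0.85 and -0.36) and the loading chaperone PDIA3 (0.18 and -0.44) lay on opposite sides. B2M and PDIA3 are both on chromosome 15 between 40 and 50 Mb, where genes had a median of -0.33 in B KO. HLA class I genes share sequence, and their reads could have been split. Of 35 interferon response genes 20 were higher in A KO and 3 lower, but both knockouts were above wild type in the median (0.82 and 0.42), and IFI27 was the 1 gene on opposite sides. IFI27 had the largest standard error of the 58 members (0.19 for the difference between the knockouts), with 10.18, 9.57, 9.27 and 9.02 in A KO against 8.55 to 8.94 in wild type.

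Of 35 neural adhesion and guidance genes 20 were higher in A KO and 10 lower (median 0.30), and 9 (25.7%) lay on opposite sides, all with A KO above as deposited, among them L1CAM, the neuropilin NRP2 (0.41 and -0.37), the plexins PLXNB1, PLXNB2 and PLXND1, the guidance ligand SLIT3 (0.15 and -0.86) and the cadherin CDH4 (0.13 and -0.78). Against wild type the list had a median of -0.04 in A KO and -0.38 in B KO. In A KO 14 of its genes were called above and 14 below, and in B KO 1 above and 23 below. The clustered protocadherins are a family in which CTCF takes part in promoter choice. All 9 measured members were higher in A KO than in B KO, by a median of 0.45. Against wild type their medians were 0.16 in A KO and -0.33 in B KO, with 3 called above in A KO and 8 below in B KO. PCDHB14 read 8.39 to 8.65 in wild type, 8.83 to 9.01 in A KO and 8.15 to 8.31 in B KO. It lay on opposite sides with PCDHB9 and PCDHGC3 (1 to 5 genes over the alternatives), and the reads of this family could have been split between its members. Of 10 intermediate filament genes 7 were higher in A KO and 1 lower, and NEFL, LMNA and SYNM were on opposite sides. The medians of these 10 against wild type were 0.10 in A KO and -0.38 in B KO.

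Of 30 hypoxia and glycolysis genes 17 (56.7%) were higher in A KO and 9 (30.0%) lower, the lower share being near that of all genes. On opposite sides lay 4 in each direction, and 5 with A KO above and 2 below after removal of the GC and length trend. The glucose transporter SLC2A1 (0.45 and -0.79), PKM (0.55 and -0.29), PFKL and PFKFB3 were above wild type in A KO and below it in B KO. The other transporter SLC2A3 (-0.18 and 0.71), LDHA (-0.51 and 0.31), the collagen prolyl hydroxylase P4HA1 (-0.29 and 0.60) and BNIP3 were the reverse. In the TGF-β and BMP list 6 of 27 were higher in A KO and 15 lower, with 3 on opposite sides in each direction and up to 6 with A KO below over the alternatives. SMAD3, LTBP3 and ID2 lay above and below, and SMAD1, ID4 and FSTL1 below and above. Of 32 listed cytokines and chemokines 10 were measured, with 4 higher and 4 lower. CSF1, the macrophage growth factor, read 9.83 to 9.99 in wild type, 11.42 to 11.68 in A KO and 9.61 to 9.81 in B KO, and IL11, a cytokine of the IL-6 family, read 9.19 to 9.48, 7.54 to 7.87 and 9.54 to 10.05.

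Among genes of APP processing, 15 of 31 (48.4%) were higher in A KO and 8 (25.8%) lower (median 0.11). The γ-secretase subunits APH1A (0.33 and -0.26) and NCSTN (0.55 and -0.27), the sorting receptor SORT1 (0.20 and -0.81), the amyloid-degrading protease ECE1 (0.63 and -0.24) and the APP homolog APLP1 (0.60 and -0.35) lay on opposite sides, all with A KO above. APBA2, an adaptor that binds APP, was 3.93-fold higher in A KO with -2.15 relative to wild type in B KO and -0.17 in A KO. Of 27 cholesterol genes 17 were higher in A KO and 2 lower, yet both knockouts lay below wild type in the median (-0.38 and -0.53). Of 27 genes of 11p11.2, the band of MTCH2, 23 were lower in A KO and 1 was higher (median -0.33), with 3 on opposite sides, MADD, CELF1 and SLC39A13. That count was 12 with the GC and length trend removed, 11 with A KO replicate 4 alone, 7 with quantile normalization and 1 under median centring, and it ran from 1 to 6 when 1 library was left out, with 6 without A KO replicate 1 or 4.

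Outside the clearly opposite genes, the 10 with the largest difference between the knockouts in each direction included several for which wild type lay with one knockout. Those higher in A KO with wild type at the A KO level included NUP210, a nuclear pore protein (9.79 to 9.97 in B KO against 11.74 to 11.82 in wild type and 11.67 to 11.84 in A KO), and the heparan sulfatase SULF2 (1.86 ± 0.05). The kinase gene FAM20C was 3.86-fold higher in A KO and MT1E, a metallothionein with close paralogs, 3.66-fold. DHRS3 and CYP26B1, enzymes that lower retinoic acid, differed by 2.06 and 1.96 with B KO at the wild-type level, whereas STRA6 of the same list lay on both sides. Of 12 measured retinoid genes 7 were higher in A KO and 2 lower. In the other direction NT5E, the adenosine-producing enzyme CD73, was at 10.84 to 10.96 in B KO against 9.09 to 9.45 in A KO and 9.25 to 9.56 in wild type, and RGS4, which turns off G-protein signals, was at 9.35 to 9.74 in A KO against 11.01 to 11.26 in B KO.

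Of the 10 genes so named as lower in A KO, 6 lie on distal chromosome 10: INPP5F, ACADSB, SEC23IP, ABRAXAS2, ATE1 and IKZF5. Of the 137 genes at least 2-fold lower in A KO, 37 lie on chromosome 10 from 110 Mb on. They were 12 of the 35 genes kept between 110 and 120 Mb, 19 of 23 between 120 and 130 Mb, and 6 of 11 from 130 Mb. Over all genes kept the share was 1.23%. Between 120 and 130 Mb, 23 genes had a median of -1.17 in A KO and 0.07 in B KO relative to wild type, and 8 of them (34.8%) were on opposite sides with A KO below. On chromosome 16 between 80 and 90 Mb the medians of 58 genes were -0.52 and 0.10, and 17 (29.3%) were on opposite sides. Among 279 windows with at least 10 genes, the largest shares of genes with A KO above were those of chromosome 22 from 50 Mb (7 of 19, 36.8%), of the mitochondrial genome (10 of 29, 34.5%), and of chromosome 1 from 150 Mb and chromosome 15 from 40 Mb (28.2% each).

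Base composition moved with the direction. The 727 genes with A KO above had a median GC content of 54.9% and the 407 genes with A KO below one of 44.5%, against 48.7% for all genes kept. For the 43 and the 15 clearly opposite genes the medians were 56.2% and 44.8%. After the GC and length trend was taken out, the opposite sets held 804 and 788 genes with medians of 51.8% and 51.4%. The removal acts on GC content itself, so the closer medians follow from it and test nothing. The part of base composition in single genes was not tested beyond this removal. Under it, all 58 members were still called on both sides of wild type, and 34 still met every condition of clear opposition. The A KO difference was over 1.5 times smaller for 13 of the 58, among them HSPG2 (0.64), FLNA (0.27) and PLAU (0.33), and the B KO difference for 0. Using A KO replicate 4 alone, the 58 kept their signs, which the rule fixed by placing every library beyond the wild-type range. In that fit the A KO difference from wild type was only -0.07 for HIVEP2, -0.09 for SETD7, 0.27 for PBXIP1 and 0.32 for IFI27.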

How the data were processed

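RNA was sequenced as read pairs from 4 wild-type, 4 A KO and 4 B KO libraries. Reads were trimmed with Trimmomatic 0.33, counted per gene with featureCounts and normalised with DESeq2 on GRCh38.p7, per the submitters' processing notes. The aligner, the annotation and the strand setting are not given in the sources used here. The deposited values were on a log2 scale (1.34 to 17.97 after normalisation by the authors) and were used as they stood. The test had been planned as log2(value + 1) of linear values, and the scale was found on opening the table. Depth is unknown, so no counting interval is given.

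The 11128 genes kept were fitted with limma 3.58.1 in R 4.3.3 over all 12 libraries, with trended empirical Bayes and Benjamini-Hochberg adjustment over all genes at 0.05. Differences are of log2 means, and folds are powers of 2 of them. The procedure was tested on simulated data. Positions, gene types, GC content and length came from GENCODE 29, which held 11151 of the 11178 identifiers. Promoters came from RefSeq (GRCh38.p14), by symbol.

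The members and the 30 gene lists were chosen with earlier results of these data known. Named were the 15 most clearly opposite genes in each direction with a mean of at least 50, the 10 other largest 2-fold differences in each direction, list members on opposite sides or among the 4 smallest adjusted p of their list, APP, CTCF, MTCH2 and cell type markers. The other clearly opposite genes were added to complete their account. A few genes are not reported here by name, and they stay in the counts. Alternatives were other scalings (median, quantile, a GC and length trend), filters, a pseudocount of 10, other variance models, a replicate block, and fits without each library.

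Lists not described in the report were counted as follows, as genes higher and lower in A KO of those measured. DNA replication had 16 and 9 of 35, mitosis 6 and 13 of 31, p53 targets 10 and 8 of 23, receptor tyrosine kinases 8 and 5 of 14, YAP and TEAD targets 8 and 10 of 24, and astrocyte and neural stem genes 6 and 6 of 17. Alzheimer risk genes had 8 and 8 of 21, cohesin and CTCF partners 3 and 7 of 18, metallothioneins and zinc transport 2 and 12 of 17, endoplasmic reticulum chaperones 7 and 9 of 25, and fatty acid synthesis 10 and 6 of 21.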

Additional observations from a re-analysis of the deposited data

Results flagged for a closer look

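Library values of the 58 clearly opposite genes were examined in each group of 4 (174 gene and group pairs) for a highest or lowest library whose gap to the next exceeded Dixon's critical share of the group's range. Chance gives about 1 in 20 such groups, and 4 of 174 (2.30%) were found. SCARB1 was lowest in B KO replicate 3, at 8.40 against 8.51 to 8.54 in the others. FBXO32 was highest in A KO replicate 4, at 13.08 against 12.95 to 12.97. CXCL8 was lowest in wild-type replicate 2, at 9.52 against 9.68 to 9.70. HIVEP2 was lowest in B KO replicate 1, at 9.41 against 9.52 to 9.53. The 58 genes were chosen so that the groups lie apart with every library included, so this holds for these 4 by the rule.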

How the results depend on the processing

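The clearly opposite genes kept both signs under every alternative that included wild type (58 of 58). This was fixed in advance for the fits without 1 library and for A KO replicate 4 alone. Every knockout library of these genes had to lie beyond the wild-type range. The fit of only the 8 knockout libraries has no difference from wild type. Under the filter at 50, which removed MT-TD, 57 of 57 kept both signs. All 58 were called on both sides except with A KO represented by replicate 4 (51) and under that filter (57 of 57 measured). The number still meeting every condition was 32 with replicate 4 alone, 34 with the GC and length trend removed, 47 without A KO replicate 1 and 48 with quantile normalization. Opposite genes with A KO below numbered 788 with the trend removed and 787 with the trend removed and a replicate block, and under median centring 63 clear genes had A KO above and 9 below. The CTCF difference between the knockouts changed sign but not its call: 0.012 with A KO replicate 4 alone (adjusted p 0.839), 0.051 with the trend removed (0.141), 0.051 with the block added (0.129) and 0.028 under median centring (0.555). The cause was not tested. Leaving out 1 library at a time gave 6734 to 8425 called genes, 3422 to 4267 higher and 3312 to 4158 lower in A KO. The 2-fold genes ran from 192 to 257 higher and 102 to 276 lower. Opposite genes ran from 858 to 1853, with 566 to 1113 above and 292 to 740 below in A KO, and clear ones from 50 to 73, with 38 to 52 and 11 to 21. The largest of the 2-fold lower and opposite counts were those without A KO replicate 4. Same-numbered libraries did not deviate together throughout (pairwise correlations -0.32 to 0.43), so the numbers are not taken as pairs. With a replicate block 7420 genes were called and 1139 were opposite (717 and 422), of which 43 and 15 were clear. Over 230 named genes and 23 alternatives, 5277 results stayed, 8 lost their call (LAMA5, MCM3, MEF2C, PDS5A and SPARC) and 4, all of CTCF, changed sign. Clones, replicate origin and depth limit what these libraries can separate.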
